A study of Homo sapiens with 18 samples.

Results

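The genes described here encode the nuclear subunits of the oxidative phosphorylation complexes. They were chosen by a rule on symbols, with earlier results of these data known. The rule took NDUFA, NDUFB, NDUFC, NDUFS and NDUFV genes (complex I), SDHA to SDHD (complex II), UQCR genes (complex III), COX4I and COX5 to COX8 genes (complex IV) and ATP5 genes (complex V), with pseudogenes left out. The rule found 89 genes among the 58315 distinct symbols of 4 tables, and 79 of them were listed in all 4. There were 83 members in the H929 table, 87 in each MM1S expression table and 85 in that of the RNA immunoprecipitation (RIP). A filter on low values kept 80 members in H929 and 79 in each MM1S table for testing, and 78 members reached the minimum in the RIP table. The symbols also take in ATP5IF1, an inhibitor of ATP synthase and not a subunit, and in the RIP table ATP5S and ATP5SL, older symbols of DMAC2L and DMAC2, which are assembly-related genes. Complexes were assigned by symbol. All counts, medians and ranks by complex therefore place NDUFA4, now known as a complex IV subunit, and its relative NDUFA4L2 in complex I.

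The study examined RBM39, a splicing factor that binds RNA, in 2 established cell lines from human multiple myeloma, H929 and MM1S. In H929, 3 libraries labelled shRBM39 stood against 3 labelled scramble. In MM1S, 2 shRBM39 libraries stood against 2 scramble libraries, and 3 libraries from indisulam-treated cells against 3 from cells given DMSO. For RIP from MM1S there was 1 library made with an antibody to RBM39 and 1 made with IgG. Scramble is a short hairpin RNA control, DMSO is the solvent control, and IgG is the control antibody. Indisulam is an aryl sulfonamide that has RBM39 protein degraded by way of the ubiquitin ligase DCAF15. The labels give no dose, no time of treatment and no hairpin sequence, and nothing in them says that replicates came from separate cultures. The p-values therefore measure the spread between these libraries only, and that spread may be technical.

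Oxidative phosphorylation passes electrons from NADH and succinate through complexes I, II, III and IV to oxygen, pumps protons across the inner mitochondrial membrane at complexes I, III and IV, and lets ATP synthase (complex V) use that gradient to make ATP. All complexes except II combine nuclear subunits with subunits encoded in mitochondrial DNA, so the nuclear transcripts measured here give most of the parts but not all of them. Plasma cells and myeloma cells make large amounts of secreted protein, a task that draws on ATP.

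RBM39 itself was measured first, as a check of the labels. In MM1S it had 64.8 and 52.2 TPM with shRBM39, against 176 and 205 TPM with scramble, a log2 difference of -1.69 (SE 0.16, adjusted p = 0.0121, limma). With indisulam it had 226.5, 217 and 149 TPM, against 189, 178 and 196 TPM with DMSO, and the groups overlapped; the drug acts on the protein. In H929 the values went against the labels, with 38.3, 38.6 and 35.6 FPKM in the libraries labelled shRBM39, against 4.56, 4.43 and 4.51 FPKM in those labelled scramble. H929 groups are therefore named by their labels throughout, and no direction in H929 is read as an effect of losing RBM39. Relative depth, taken from how low FPKM values step, was 0.975 to 1.147 times that of the library labelled scramble 1 in the other H929 libraries, though only 9.4% to 12.2% of the genes compared sat at those ratios; depth is unknown in the other tables. FPKM and TPM are both per transcript length.

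All 8 plasma cell markers were listed in every expression table. Their sum was 3946 to 4184 FPKM in H929 labelled shRBM39, against 2598 to 2773 FPKM in H929 labelled scramble. It was 2061 and 3034 TPM in MM1S shRBM39, against 1694 and 1891 TPM in scramble, and 3020 to 3299 TPM with indisulam, against 3585 to 3754 TPM with DMSO. The 8 did not move together. In H929 labelled shRBM39, 5 were called higher and 3 lower, against 24.1% and 48.1% of all genes. XBP1 averaged 2204 FPKM there, against 1669 FPKM in H929 labelled scramble. With shRBM39 in MM1S 1 was higher and 0 lower, against 3.97% and 6.35% of all genes. With indisulam 1 was higher and 3 lower, against 8.47% and 21.5% of all genes, at a median log2 difference of 0.01. Markers of T cells summed to 15.7 to 18.5 FPKM in H929 labelled shRBM39, against 39.3 to 47.1 FPKM in H929 labelled scramble, with 3 of 4 genes below 1 FPKM in every library. Markers of B cells, macrophages, stroma, epithelium and erythroid cells each summed to at most 17.0 FPKM in H929 and, with T cell markers, at most 41.2 TPM in MM1S. In bulk libraries, fewer cells of a type and less RNA per cell cannot be told apart, and the part of these shifts in the results below was not tested.

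Promoter windows from RefSeq (GRCh38.p14), from 250 bases before to 50 bases after each gene's start, were available for 70 members. NRF1, GABPA (an ETS factor) and YY1 are known regulators of nuclear genes for mitochondrial proteins. The palindromic core of the NRF1 motif, searched on both strands like the others, was in 17 of the 70 windows (24.3%), against 6.28% of 27305 windows of all genes. The ETS core CCGGAAG was in 20 windows (28.6%), against 10.7% of all windows. The YY1 core ATGGCGG was in 19 windows (27.1%), against 5.72% of all windows, and in 13 of 31 complex I windows but 1 of 14 windows each for complexes IV and V. At least 1 of the 3 was in 61.4% of members' windows, against 19.5% of all windows, which include noncoding genes. A match is a description of letters and not a binding site. The 250 bases before the start are printed for COX7C, reported apart below, and for NDUFB8, NDUFS1 and ATP5PD, which were called in all 3 expression comparisons. Capitals mark ETS core matches in NDUFS1 and ATP5PD. The NDUFS1 window also held 1 YY1 core match, which lies past the printed bases. NDUFB8 had no match to the 3 cores. In COX7C, which also had none of the 3, capitals mark 2 matches to a stretch of the known binding motif of the factor ZNF143. That stretch was searched after the COX7C sequence was read; it was in 2 members' windows and in 0.886% of all windows, and it occurred 2 or more times in 0.0732% of all windows.
COX7C promoter, chr5:86617691-86617940, plus strand: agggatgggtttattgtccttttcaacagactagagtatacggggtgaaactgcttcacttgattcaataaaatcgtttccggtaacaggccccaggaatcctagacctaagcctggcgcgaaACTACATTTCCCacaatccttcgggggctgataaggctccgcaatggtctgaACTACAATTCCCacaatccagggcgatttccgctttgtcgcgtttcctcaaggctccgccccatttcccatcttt
NDUFB8 promoter, chr10:100529924-100530173, minus strand: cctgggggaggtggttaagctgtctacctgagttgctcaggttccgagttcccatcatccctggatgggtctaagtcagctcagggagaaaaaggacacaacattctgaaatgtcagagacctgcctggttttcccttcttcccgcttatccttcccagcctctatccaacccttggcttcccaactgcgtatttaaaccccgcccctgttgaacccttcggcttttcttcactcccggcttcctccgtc
NDUFS1 promoter, chr2:206159445-206159694, minus strand: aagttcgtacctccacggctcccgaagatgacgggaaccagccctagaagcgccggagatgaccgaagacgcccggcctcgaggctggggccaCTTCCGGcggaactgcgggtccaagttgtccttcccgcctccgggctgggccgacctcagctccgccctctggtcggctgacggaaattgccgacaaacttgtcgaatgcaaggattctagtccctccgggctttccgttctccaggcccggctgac
ATP5PD promoter, chr17:75046970-75047219, minus strand: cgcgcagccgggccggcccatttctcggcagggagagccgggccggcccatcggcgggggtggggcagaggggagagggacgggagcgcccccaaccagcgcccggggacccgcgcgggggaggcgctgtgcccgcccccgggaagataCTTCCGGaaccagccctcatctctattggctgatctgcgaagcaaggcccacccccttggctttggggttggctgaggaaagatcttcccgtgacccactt

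In MM1S with shRBM39, 8 subunit genes fell, 1 was called higher and 70 of 79 did not pass the test. The members that fell lay in complex I (3 of 37 tested), III (1 of 8), IV (2 of 12) and V (2 of 18), and none of the 4 complex II genes was called. Each comparison was fitted with limma on log2(value + 1), and calls needed an adjusted p (Benjamini-Hochberg, over all genes tested) under 0.05. Among all 14152 genes tested, 6.35% were called lower and 3.97% higher, against 8 and 1 of 79 members. The members' median log2 difference was -0.14 and that of all genes 0.00. The groups did not overlap for 37 members that were lower and 12 that were higher with shRBM39, against 31.9% and 30.5% of all genes.

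The gene that fell most was NDUFB8, an accessory subunit in the distal membrane arm of complex I. It had 101 and 112 TPM with shRBM39, against 288 and 276 TPM with scramble. Both shRBM39 libraries lay well below both scramble libraries, and the log2 difference was -1.40 (SE 0.12, adjusted p = 0.0116, limma). NDUFS1, the large iron-sulfur subunit of the NADH-oxidizing module, had 20.4 and 26.6 TPM with shRBM39, against 52.0 and 56.1 TPM with scramble. Its log2 difference was -1.18 (SE 0.17, adjusted p = 0.0221). NDUFV2, another iron-sulfur subunit of that module, had 484 and 465 TPM with shRBM39, against 703 and 806 TPM with scramble (log2 difference -0.67, SE 0.12, adjusted p = 0.0319). The 3 are parts of the arm that takes electrons from NADH (NDUFS1, NDUFV2) and of the proton-pumping arm (NDUFB8), and for each the lower value lay in both shRBM39 libraries.

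In complex III, UQCRC1, a core subunit, had 81.3 and 76.6 TPM with shRBM39, against 119 and 115 TPM with scramble (log2 difference -0.57, SE 0.12, adjusted p = 0.0459). In complex IV, COX8A, a small structural subunit, had 391 and 320.1 TPM with shRBM39, against 620.1 and 585 TPM with scramble (log2 difference -0.77, adjusted p = 0.0331). COX6C, another small subunit, had 254 and 228 TPM with shRBM39, against 396 and 386 TPM with scramble (log2 difference -0.70, adjusted p = 0.0292). In ATP synthase, ATP5PD, subunit d of the peripheral stalk, had 194 and 164 TPM with shRBM39, against 291 and 296 TPM with scramble (log2 difference -0.72, adjusted p = 0.036). ATP5MD, a small membrane subunit now called ATP5MK, had 498 and 517 TPM with shRBM39, against 716 and 713 TPM with scramble (log2 difference -0.49, adjusted p = 0.0427). In all 5 genes both shRBM39 libraries lay below both scramble libraries.

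The 4 succinate dehydrogenase genes stood close to their controls or above. SDHA, the flavoprotein that oxidizes succinate, had 149 and 150.1 TPM with shRBM39, against 126 and 152 TPM with scramble. SDHC, a membrane anchor, had 165 and 159.99 TPM with shRBM39, against 113 and 130 TPM with scramble, a log2 difference of 0.42 that missed the threshold (adjusted p = 0.0929). SDHB and SDHD had log2 differences of 0.00 and 0.09, with overlapping groups. The 2 shRBM39 libraries differed widely for some members, chosen here after their values were seen. COX5B had 238 and 103 TPM with shRBM39, against 94.8 and 137 TPM with scramble, and NDUFB10 had 249.7 and 109 TPM with shRBM39, against 156 and 201 TPM with scramble. With 2 libraries a group the call counts shifted with the settings. Leaving out 1 library leaves a lone library in its group, so calls of those refits are not counted here. The members' median log2 difference then ranged from -0.21 to -0.04. With no filter on low values 0 members were called, and 0% of all genes. Without limma's trend and robust options 2 members were called lower and 1 higher, against 4.68% and 2.85% of all genes.

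COX7C encodes a small membrane subunit of cytochrome c oxidase, and it was the 1 member called higher with shRBM39 in MM1S. It was set apart when the members were chosen, with earlier results of these data known, and its p-values take no account of that choice. COX7C had 649.5 and 651 TPM with shRBM39, against 112 and 125 TPM with scramble. No MM1S expression library other than the 2 scramble libraries was below 649.5 TPM, but the indisulam and DMSO libraries were normalized separately. What part the scramble libraries or their processing have in the difference was not tested. The log2 difference was 2.45 (SE 0.12, adjusted p = 0.0116, limma), and an exact permutation test over the 4 libraries gave p = 0.333, two-sided, the smallest it can give. Without scramble replicate 1 or 2 the log2 difference was 2.37 or 2.53, with a lone scramble library left. COX7C ranked first among complex IV genes in both shRBM39 libraries, at 2.56 and 2.88 times the median of the other 11 detected complex IV genes. In the scramble libraries it ranked 8 and 9, at 0.381 and 0.422 times that median.

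In the other comparisons COX7C differed little between groups. It had 794, 777 and 941 TPM with indisulam, against 913, 999 and 974 TPM with DMSO, and it ranked first in complex IV in all 6 libraries. The groups overlapped, and the log2 difference was -0.20 (SE 0.10, adjusted p = 0.152, limma; exact permutation p = 0.2, two-sided, where the smallest possible is 0.1). Relative to the median of the other complex IV genes it stood at 2.63 to 2.74 with indisulam and at 2.41 to 2.46 with DMSO. Without indisulam replicate 3 the log2 difference was -0.29 (adjusted p = 0.00281). In H929, COX7C had 267, 278 and 263 FPKM in the libraries labelled shRBM39, against 318, 282 and 303 FPKM in those labelled scramble. All 3 labelled shRBM39 were lower (log2 difference -0.16, SE 0.05, adjusted p = 0.00797, limma; exact permutation p = 0.1, the smallest possible). Scaling libraries to a common median moved that difference to 0.00. Levels set side by side across tables were normalized separately, so the 118 TPM mean of MM1S scramble and the 962 TPM mean of DMSO were not tested against each other.

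**Figure D1:**
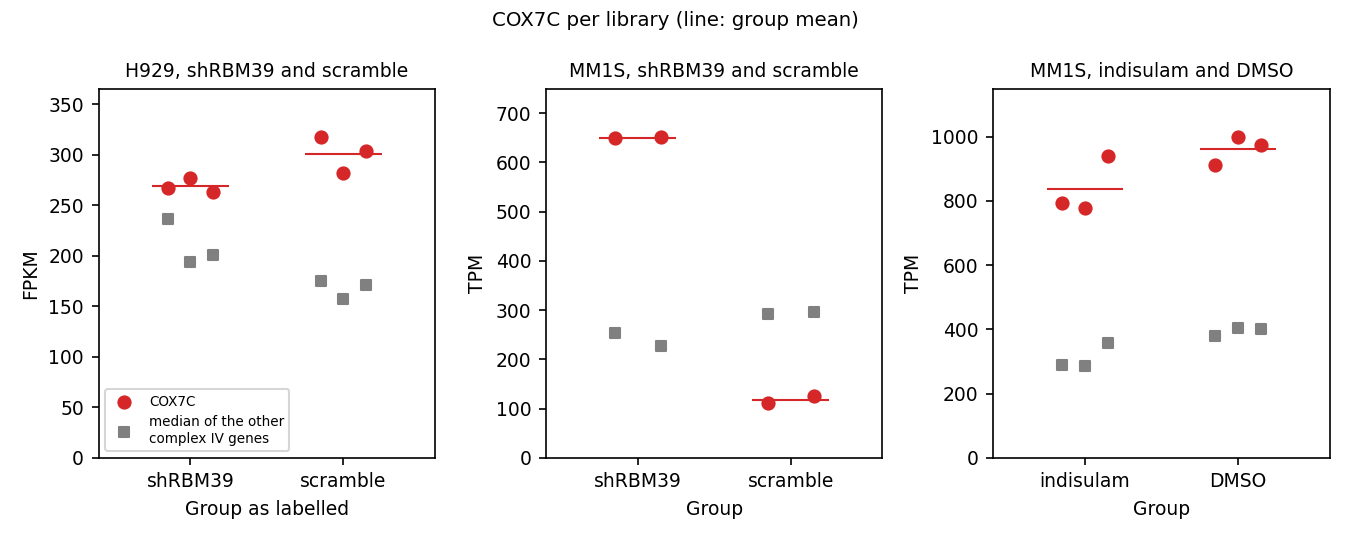
COX7C (red circles, 1 per library; red line, group mean) and the median of the other complex IV genes detected in the table (grey squares), in FPKM for H929 and in TPM for MM1S, with a panel per table. COX7C lies above the grey squares everywhere except in the MM1S scramble libraries, at 112 and 125 TPM.

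Of 79 members tested with indisulam, 44 fell, 1 rose and 34 did not pass the test. Among all 13445 genes, 21.5% were called lower and 8.47% higher. The members' median log2 difference was -0.38, against -0.05 for all genes. The groups did not overlap for 51 members that were lower and 4 that were higher, against 32.3% and 14.9% of all genes. By complex, 16 of 18 members of complex V were lower, 19 of 38 of complex I (with 1 higher), 5 of 11 of complex IV, 3 of 8 of complex III and 1 of 4 of complex II. These counts depend on the scaling. Libraries set to a common median gave 13 members lower and 2 higher, against 22% and 19.3% of all genes. Quantile normalization gave 16 lower and 7 higher, against 20.7% and 22.5% of all genes, so the share called lower lay near the background there. Over all genes the share of calls that were higher was 28.3%, and it was 46.7% and 52.1% under those scalings.

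**Figure D2:**
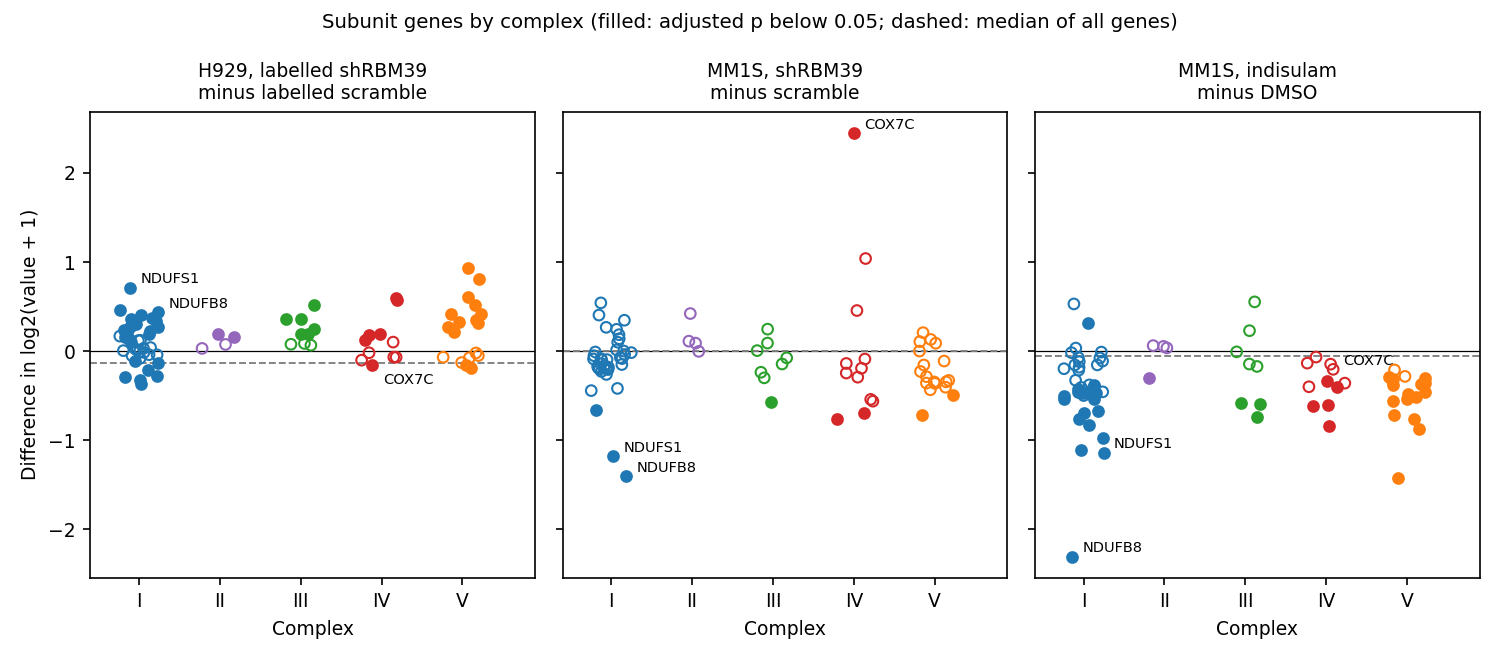
Difference in log2(value + 1) for each tested member, by complex, in H929 (labelled shRBM39 minus labelled scramble), MM1S shRBM39 minus scramble and MM1S indisulam minus DMSO; filled points passed the test and the dashed line is the median of all genes. Most indisulam points lie below 0, with NDUFB8 lowest at -2.31, most H929 points lie above 0, and COX7C is at 2.45 in the MM1S shRBM39 panel.

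In complex I, NDUFB8 had 61.9, 59.9 and 63.4 TPM with indisulam, against 299.7, 311 and 317 TPM with DMSO. The 3 treated libraries were close together and far below the controls, with a log2 difference of -2.31 (SE 0.08, adjusted p = 2.56e-05, limma). NDUFS1 had 14.4, 13.3 and 8.18 TPM with indisulam, against 27.7, 26.4 and 26.4 TPM with DMSO (log2 difference -1.14, SE 0.21, adjusted p = 0.00749). NDUFV2 had 302, 326 and 364 TPM with indisulam, against 700, 731 and 714 TPM with DMSO (log2 difference -1.11, SE 0.09, adjusted p = 0.000293). When complex I genes were sorted by module, a grouping made after the values were seen, the NADH-oxidizing N module had 8 of 10 lower and 1 higher. The ubiquinone-reducing Q module had 3 of 5 lower, the proximal membrane arm 3 of 10 and the distal membrane arm 5 of 11.

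The gene that rose was NDUFS4, a small subunit of the N module. It had 109, 109 and 118 TPM with indisulam, against 83.7, 95.9 and 91.3 TPM with DMSO, and all treated libraries lay above all controls (log2 difference 0.31, SE 0.09, adjusted p = 0.0387, limma). The call was lost when any library other than indisulam replicate 3 was left out, and also under median scaling, without a filter, without the trend and robust options and with a replicate block. In MM1S shRBM39 NDUFS4 had 104.5 and 108 TPM, against 68.8 and 76.4 TPM with scramble, a log2 difference of 0.54 that missed the threshold (adjusted p = 0.0538).

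In complex II, SDHB, the iron-sulfur subunit, fell to 64.2, 67.1 and 69.5 TPM with indisulam, against 82.5, 83.1 and 83.4 TPM with DMSO (log2 difference -0.31, adjusted p = 0.0308, limma). SDHA, SDHC and SDHD had log2 differences of 0.05, 0.06 and 0.04, with overlapping groups. In complex III, UQCRQ, a small subunit beside cytochrome b, had 169 to 228 TPM with indisulam, against 299 to 340 TPM with DMSO (log2 difference -0.74, adjusted p = 0.00482). UQCRC1 had 97.9, 88.5 and 96.8 TPM with indisulam, against 139, 146 and 143 TPM with DMSO (log2 difference -0.59, adjusted p = 0.00226). In complex IV, COX8A had 472, 445 and 582 TPM with indisulam, against 843, 917 and 909.9 TPM with DMSO (log2 difference -0.84, adjusted p = 0.00206). COX7B, another small subunit, had 83.8 to 87.9 TPM with indisulam, against 126 to 141 TPM with DMSO (log2 difference -0.61, adjusted p = 0.00213). COX6C, at 296 to 361 TPM with indisulam against 399 to 414 TPM with DMSO, had a log2 difference of -0.34 (adjusted p = 0.0335).

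In ATP synthase, all 5 genes of the F1 head and central stalk, all 4 of the peripheral stalk and all 3 of the c-ring were called lower, with 3 of 5 small membrane subunits. Of the 18 complex V genes, 16 were lower, but 3 were under median scaling, 5 under quantile normalization, 8 without the trend and robust options, 10 without a filter and 10 with a replicate block. Leaving out 1 library gave 5 to 18 lower, with 5 when DMSO replicate 2 or 3 was left out. All 18 log2 differences were negative in these settings except under quantile normalization, where 14 were. ATP5MC1, 1 of 3 genes that encode the same c-ring protein, had 89.8, 113 and 115 TPM with indisulam, against 261, 289 and 305 TPM with DMSO (log2 difference -1.42, SE 0.12, adjusted p = 0.000388, limma). Its paralogues ATP5MC2 and ATP5MC3 had smaller log2 differences of -0.32 and -0.29 (adjusted p = 0.0233 and 0.0216), and that of ATP5MC3 turned to 0.064 under quantile normalization. ATP5PD had 174, 186 and 231 TPM with indisulam, against 346, 381 and 354 TPM with DMSO (log2 difference -0.88, SE 0.12, adjusted p = 0.00192). ATP5IF1, the inhibitor, had 701, 642 and 634 TPM with indisulam, against 888, 981 and 952 TPM with DMSO (log2 difference -0.51, adjusted p = 0.00368).

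Indisulam replicate 3 stood nearer to DMSO than the other treated libraries. For 61 of 79 members its value was closer to the DMSO mean than the mean of replicates 1 and 2, a count not made over all genes. The members' median difference from the DMSO mean was -0.19 in replicate 3 and -0.45 in replicates 1 and 2, on the log2 scale. Without replicate 3, 66 members were called lower and 4 higher, against 29% and 36.8% of all genes. With all libraries 21.5% and 8.47% of all genes were called, so leaving out replicate 3 also raised the calls outside the members. Leaving out any other library gave 21 to 27 members lower and 0 higher, against 11.9% to 17.7% and 3% to 4.05% of all genes. UQCRC2, a core subunit of complex III, was picked after its values were seen, as a member that replicates 1 and 2 set apart. It had 197, 189 and 118 TPM with indisulam, against 111, 109 and 114 TPM with DMSO. Replicate 3 was near the controls, and the gene did not pass the test with all libraries (adjusted p = 0.0665, limma). NDUFS1 went the other way, with its lowest value in replicate 3. The RBM39 transcript, at 149 TPM, was also lowest in replicate 3; how these differences relate was not tested.

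**Figure D3:**
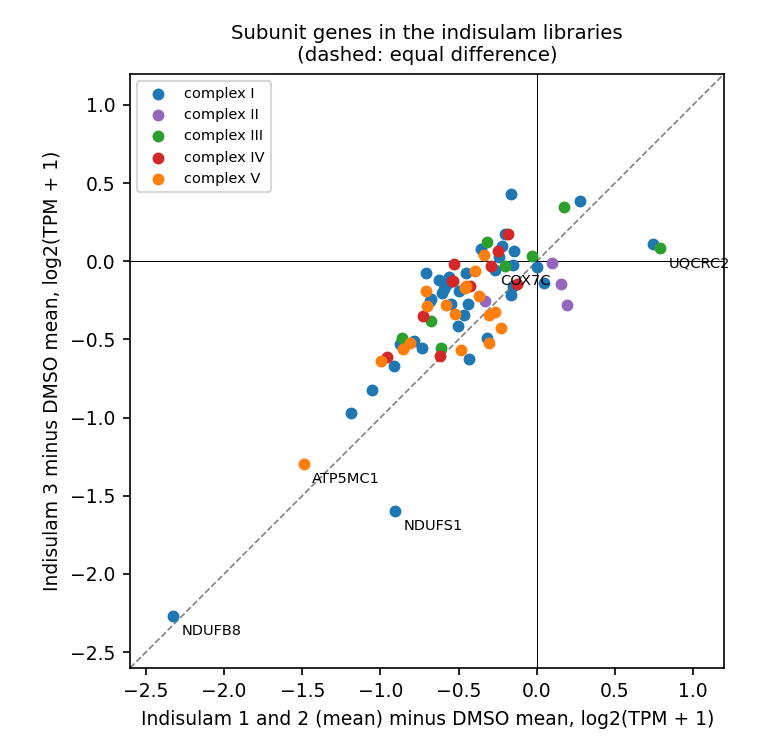
Difference from the DMSO mean in log2(TPM + 1) for each tested member, with the mean of indisulam replicates 1 and 2 on the x axis and replicate 3 on the y axis; the dashed line marks equal differences. Most points lie above the line, at a median of -0.19 in replicate 3 and -0.45 in replicates 1 and 2, while NDUFB8 lies on it and NDUFS1 below it.

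All 8 members that fell with shRBM39 in MM1S also fell with indisulam: NDUFB8, NDUFS1, NDUFV2, UQCRC1, COX8A, COX6C, ATP5PD and ATP5MD. They make up 8 of the 44 called lower with indisulam. Of all genes called lower with shRBM39 and tested with indisulam, 475 of 855 (55.6%) were called lower with indisulam too. The comparisons share no libraries. Among 78 members tested in both, 55 had a negative log2 difference in both. The matching count over all genes was not made. Taken singly, 7087 of 14152 genes were negative with shRBM39 and 7200 of 13445 with indisulam. The sizes differed: NDUFB8 had -1.40 with shRBM39 and -2.31 with indisulam, ATP5MC1 -0.40 and -1.42, and COX6C -0.70 and -0.34. COX7C had 2.45 and -0.20.

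**Figure D4:**
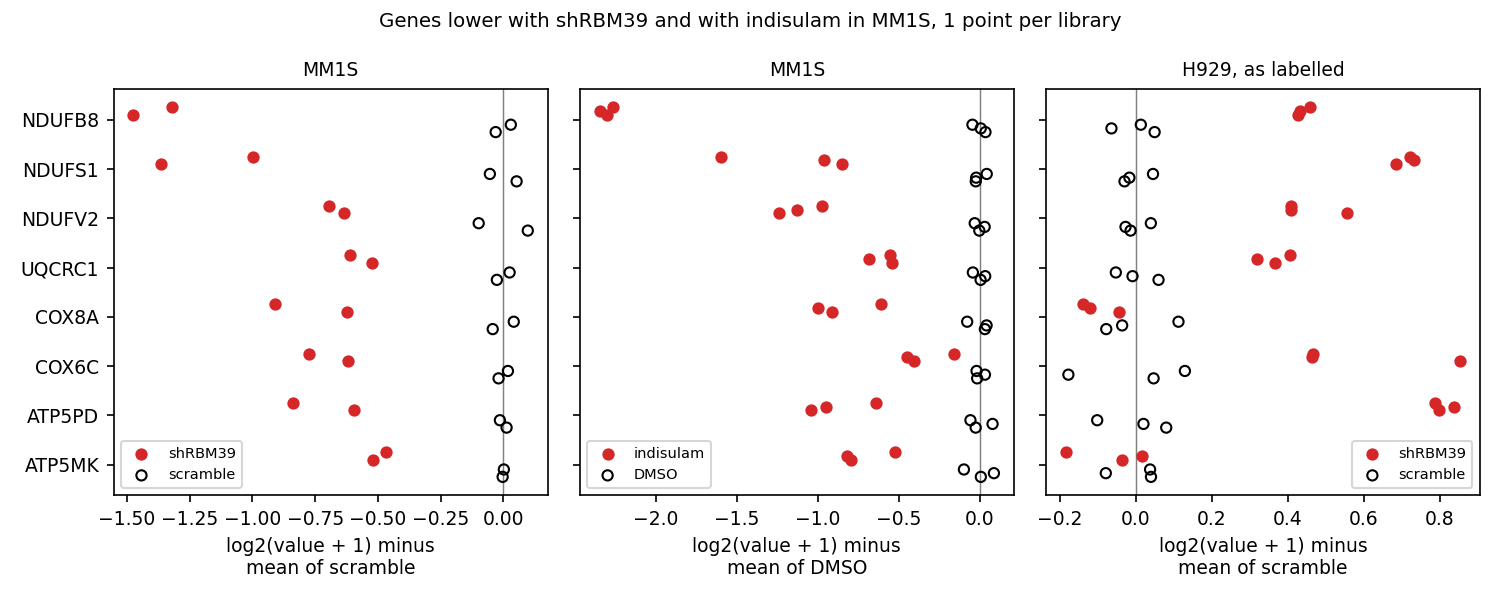
The 8 genes lower in both MM1S comparisons, with 1 point per library as log2(value + 1) minus the mean of the controls of that table; filled points are shRBM39 or indisulam libraries and open points are scramble or DMSO libraries. The filled points lie left of the open ones in both MM1S panels, and in H929, by label, they lie right of the open ones for 6 genes and overlap them for COX8A and ATP5MK.

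In H929, 41 of 80 members had higher values in the group labelled shRBM39 than in the group labelled scramble, 10 had lower values and 29 did not pass the test. Of all 10360 genes tested, 24.1% were called higher and 48.1% lower, so the split of the members ran opposite to that of all genes. The members' median log2 difference was 0.13, against -0.13 for all genes. The H929 libraries had unlike totals, from 374511 to 428099 FPKM. As a share of its library's total, the members' sum was 2.32%, 2.26% and 2.22% in H929 labelled shRBM39. It was 2.34%, 2.29% and 2.30% in H929 labelled scramble, so the groups overlapped by share. What part the totals have in the calls was not tested. Scaling libraries to a common median moved the median of all genes to 0.03 and the members to 61 higher and 2 lower, against 38% and 32% of all genes. The groups did not overlap for 42 members that were higher and 9 that were lower, against 25.1% and 49.6% of all genes. The share of all calls that were higher was 33.4%, and it was 54.3% under that scaling and 49.6% under quantile normalization. Complex III had 6 of 9 higher and 0 lower, complex V 11 of 18 higher and 2 lower, complex I 17 of 38 higher and 7 lower, complex IV 5 of 11 higher and 1 lower, and complex II 2 of 4 higher. The 7 lower in complex I included NDUFA4L2, placed there by symbol. No member reached a log2 difference of 1.

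The widest gap was in ATP5IF1, at 299.2, 253 and 257 FPKM in H929 labelled shRBM39, against 141, 135 and 144 FPKM in H929 labelled scramble (log2 difference 0.94, SE 0.06, adjusted p = 1.48e-08, limma). ATP5PD had 132, 136 and 131 FPKM in H929 labelled shRBM39, against 70.5, 76.8 and 80.1 FPKM in H929 labelled scramble (log2 difference 0.81, SE 0.05, adjusted p = 9.18e-09). NDUFS1 had 8.9, 9.25 and 9.17 FPKM in H929 labelled shRBM39, against 5.36, 5.09 and 5.04 FPKM in H929 labelled scramble (log2 difference 0.71, SE 0.06, adjusted p = 1.89e-07). In each of the 3 genes every library labelled shRBM39 lay above every library labelled scramble. NDUFV2 had 172, 155 and 155 FPKM, against 120, 114 and 115 FPKM in H929 labelled scramble (log2 difference 0.46), and NDUFB8 had 143, 143 and 146 FPKM, against 107, 101 and 109.6 FPKM (log2 difference 0.44). COX6C, at 186 to 244 FPKM against 119 to 147 FPKM, had a log2 difference of 0.60. COX7A2L, which helps join complexes III and IV into supercomplexes, had 29.0 to 31.0 FPKM in H929 labelled shRBM39, against 19.1 to 20.3 FPKM in H929 labelled scramble (log2 difference 0.57). UQCRC1 and UQCRHL had log2 differences of 0.36 and 0.51. SDHA and SDHD had smaller ones of 0.19 and 0.16, and all 5 of these were called.

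The 10 members lower in H929 labelled shRBM39 differed less. NDUFS4 had 35.5, 34.7 and 32.3 FPKM, against 43.8, 40.2 and 44.5 FPKM in H929 labelled scramble (log2 difference -0.32, SE 0.05, adjusted p = 0.000137, limma). ATP5F1B, the catalytic beta subunit of ATP synthase, had 449.9, 449 and 441 FPKM, against 521, 509 and 501 FPKM in H929 labelled scramble (log2 difference -0.19, adjusted p = 0.000432). ATP5MJ, a small membrane subunit, had a log2 difference of -0.16 (adjusted p = 0.0129) that lost its call without 3 of the 6 libraries in turn. NDUFS4 kept its call in every refit at an adjusted p under 0.05, though not at a log2 difference of at least 1, and ATP5F1B lost its call under median scaling.

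Across all 3 expression comparisons, 6 members were called each time: NDUFB8, NDUFS1, NDUFV2, UQCRC1, COX6C and ATP5PD. Each was lower with shRBM39 in MM1S, lower with indisulam and higher in H929 labelled shRBM39. Of 740 genes called lower with shRBM39 in MM1S and tested in all 3, 387 (52.3%) were called higher in H929 labelled shRBM39. Of the 44 members called lower with indisulam, 27 were called higher in H929 labelled shRBM39, against 859 of 2243 genes (38.3%) called lower with indisulam. ATP5F1B, ATP5MJ and NDUFB2, an accessory subunit of the distal arm named after its values were seen, were lower in both. NDUFS4 was higher with indisulam and lower in H929 labelled shRBM39. COX7C was called in opposite directions in MM1S with shRBM39 and in H929. RBM39 itself was lower with shRBM39 in MM1S and higher in H929 labelled shRBM39, and these values were not tested against each other, since the tables were normalized separately.

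Genes for tissue isoforms were silent or nearly so. COX4I2, COX6A2, COX7A1, COX7B2 and COX8C, which encode lung, heart and muscle, or testis forms of complex IV subunits or forms of limited distribution, were listed at 0 in all MM1S expression libraries and in both RIP libraries. Their common counterparts were present: COX4I1 at 401 and 425 TPM with shRBM39, against 496 and 416 TPM with scramble, and COX6A1 at 319 and 276 TPM with shRBM39, against 462 and 417 TPM with scramble. COX6A1 had a log2 difference of -0.56 in that comparison (adjusted p = 0.0541, limma) and of -0.60 with indisulam, where it was called (adjusted p = 0.011). COX6B2, the testis form of COX6B, had 1.52 and 5.57 TPM with shRBM39, against 1.04 and 0.92 TPM with scramble, and did not pass the test. COX6B1 had 473 to 478 TPM with shRBM39, against 500.5 to 511 TPM with scramble. NDUFA4, which is now known as a complex IV subunit despite its name, did not pass the test in any comparison, with log2 differences of 0.03 in H929, -0.17 with shRBM39 in MM1S and -0.12 with indisulam. Its hypoxia-responsive relative NDUFA4L2 was at 2.4 to 2.89 FPKM in H929 labelled shRBM39, against 3.1 to 5.12 FPKM in H929 labelled scramble, and was among the 10 called lower there (log2 difference -0.37, adjusted p = 0.0199). UQCRH had 760 to 771 TPM with shRBM39, against 901 to 903 TPM with scramble, without a call. UQCRHL is an intronless copy of UQCRH, was below 1 TPM in every MM1S library and had 26 to 29.7 FPKM in H929 labelled shRBM39, against 17.1 to 20.2 FPKM in H929 labelled scramble. The counting could have split reads between these copies, so the H929 values of UQCRHL are uncertain. COX7A2 and COX7A2L did not pass the test in either MM1S comparison.

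Other genes of the pathway were counted from lists chosen with earlier results of these data known. Of the 13 subunits encoded in mitochondrial DNA, which the H929 table does not list, 1 was lower and 0 were higher with shRBM39 in MM1S, and 3 were lower and 1 higher with indisulam. Of all genes, 6.35% were called lower with shRBM39 and 21.5% with indisulam, so these shares lie near the background. The 1 was MT-ND4L, with a log2 difference of -0.68 (adjusted p = 0.0397, limma). With indisulam MT-CYB, the cytochrome b of complex III, had -0.58, MT-CO3 -0.57 and MT-CO1, the catalytic subunit of complex IV, 0.55. Their summed level was 101028 to 114780 TPM with indisulam, against 97463.5 to 123966 TPM with DMSO, so the groups overlapped, and 160465 and 196369 TPM with shRBM39, against 159001 and 161198 TPM with scramble. The sum of the members themselves was 18270 to 21574 TPM with indisulam, against 24626 to 26312 TPM with DMSO, and 18145 and 16455 TPM with shRBM39, against 19073 and 18964 TPM with scramble.

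CYC1, the cytochrome c1 of complex III, CYCS, the electron carrier cytochrome c, and NDUFAB1, the acyl carrier protein of complex I, lie outside the symbol rule; NDUFAB1 was named after its values were seen. With indisulam they had log2 differences of -0.83, -0.55 and -0.67 and all were called lower; in H929 labelled shRBM39 they had 0.30, 0.42 and 0.15 and all were called higher. Of 49 assembly factors, 13 were lower and 1 higher with indisulam, against 21.5% and 8.47% of all genes, led by SDHAF2, which adds flavin to SDHA (log2 difference -1.25, adjusted p = 0.000977). BCS1L, which inserts the Rieske protein into complex III, had -0.96 (adjusted p = 0.00788). With shRBM39 in MM1S 1 was lower and 0 were higher, against 6.35% and 3.97% of all genes. The 1 was PET117, a complex IV assembly factor (log2 difference -0.93, adjusted p = 0.0386). In H929, 9 of 47 tested had higher values and 17 lower values in the group labelled shRBM39, against 24.1% and 48.1% of all genes, with UQCC1, an assembly factor of complex III, at 1.41 and COX10, which makes heme for complex IV, at -0.82. Of 14 tricarboxylic acid cycle genes, 5 were lower with indisulam, against 21.5% of all genes, among them IDH2, mitochondrial isocitrate dehydrogenase (log2 difference -0.85, adjusted p = 0.00039), and FH, fumarate hydratase (-0.70, adjusted p = 0.00322). FH was also lower with shRBM39 in MM1S (log2 difference -0.68, adjusted p = 0.0439), the 1 gene of that list called there. In H929 labelled shRBM39, 7 of the 14 were higher and 4 lower, against 24.1% and 48.1% of all genes. SUCLG2 at 0.99 was among the higher, and SUCLA2 at -0.82 and DLD at -0.58 were among the lower.

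Among 12 regulators of mitochondrial gene expression, ESRRA, a nuclear receptor that drives such genes, was higher with indisulam (log2 difference 0.48, adjusted p = 0.0195, limma) and lower in H929 labelled shRBM39 (log2 difference -1.19, adjusted p = 2.17e-10). PPARGC1A, the coactivator of that receptor, had a log2 difference of 1.01 with indisulam (adjusted p = 0.0342). TFB1M, a methyltransferase of mitochondrial ribosomal RNA, and PPRC1, a related coactivator, were lower with indisulam, at -0.87 and -0.50. With indisulam 2 of the 12 were called higher and 2 lower, against 8.47% and 21.5% of all genes. None of the 12 was called with shRBM39 in MM1S, where 3.97% of all genes were called higher and 6.35% lower. In H929 labelled shRBM39, 3 were higher and 5 lower, against 24.1% and 48.1% of all genes, so these shares lie near the background. The 3 were GABPB1, a partner of GABPA, at 0.49, YY1 at 0.30 and NRF1 at 0.21. The 5 included PPARGC1A at -0.43 next to ESRRA. NRF1 was named after its value was seen.

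In the RIP libraries most subunit transcripts stood lower with the RBM39 antibody than with IgG. With 1 library of each kind there was no test and no replicate check. Of 78 members at 1 FPKM or more in either library, 48 had at most 0.5 times the IgG value after 1 was added to each, and 7 had at least 2 times that value. Of all 10946 such genes, 23.9% and 22.6% were past those ratios. The members' median log2 ratio was -1.69, against 0.02 for all genes. All these genes summed to 481308 FPKM with RBM39, against 652488 FPKM with IgG, totals the ratios do not adjust for. Members summed to 7819 FPKM with RBM39, against 12826 FPKM with IgG. The sums were lower with RBM39 in complexes I, III and IV. They were higher with RBM39 in complex II (561 against 305 FPKM) and complex V (3950 against 3883 FPKM). By complex the median log2 ratio was -1.25 for complex I, -1.21 for II, -2.24 for III, -2.09 for IV and -1.43 for V. No gene placed in complex IV by symbol reached 2 times IgG. NDUFA4L2, counted in complex I, had a log2 ratio of 1.35.

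Among the members above 2-fold, NDUFA4L2 had 1.56 FPKM with RBM39 and was listed at 0 with IgG. UQCRC1 had 174 FPKM with RBM39, against 36.9 FPKM with IgG (log2 ratio 2.21). ATP5B, the older symbol of ATP5F1B, had 1221 FPKM with RBM39, against 282 FPKM with IgG (log2 ratio 2.11). SDHA had 514 FPKM with RBM39, against 133 FPKM with IgG (log2 ratio 1.95), and ATP5A1, now ATP5F1A, the alpha subunit of ATP synthase, had 931 FPKM with RBM39, against 342 FPKM with IgG (log2 ratio 1.44). UQCRFS1, the Rieske iron-sulfur protein, named after its values were seen, had a log2 ratio of 1.22. The lowest ratios among symbols that match the rule were those of NDUFB3 with 1.87 FPKM with RBM39, against 63.3 FPKM with IgG (log2 ratio -4.49), NDUFB11 at -4.30, NDUFA1 at -3.99, COX7A2 at -3.68 and NDUFA4 at -3.43. The RIP table lists ATP5MJ as C14orf2 and ATP5MK as USMG5, older symbols outside the rule, and these lay in the same range, at -4.08 and -3.67.

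COX7C had 228 FPKM with RBM39, against 972 FPKM with IgG (log2 ratio -2.09). Of the members called in all 3 expression comparisons, UQCRC1 and NDUFS1 were above 0 in the RIP, at 2.21 and 0.47, and NDUFB8, NDUFV2, ATP5PD (listed as ATP5H) and COX6C were below, at -1.11, -2.19, -2.29 and -2.99. Within ATP synthase the genes of the F1 head and central stalk ranged from ATP5B at 2.11 to ATP5E, the epsilon subunit, named after its value was seen, at -3.36, while all 4 peripheral stalk genes were below 0.5 times IgG. All 11 of the 13 mitochondrially encoded subunits that reached the minimum were also below 0.5 times IgG, with a median log2 ratio of -4.76. RBM39's own transcript had 62.1 FPKM with RBM39, against 127 FPKM with IgG.

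**Figure D5:**
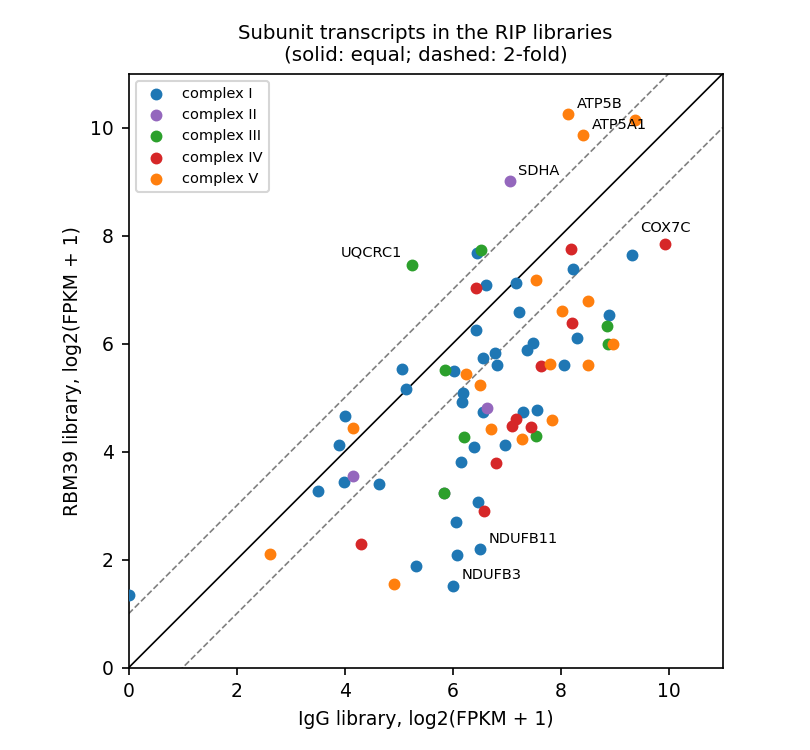
Subunit transcripts in the MM1S RIP libraries as log2(FPKM + 1), RBM39 antibody on the y axis and IgG on the x axis, coloured by complex; the solid line marks equal values and the dashed lines 2-fold differences. Of the 78 points, 48 lie below the lower dashed line or on it and 7 above the upper one.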

How the data were processed

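Values of 16 RNA sequencing and 2 RIP libraries were used as deposited, and 0 columns were left unmatched to samples. The RIP table holds FPKM per the file headers, and the H929 table, made by the authors, holds FPKM by its name. Both MM1S expression tables carry FPKM in their names, but the deposited columns add up to the fixed total of TPM, so the values were taken as TPM; the design had assumed FPKM, and the same test was used. TRIzol served for the RNA and a SMARTER mRNA kit for the libraries, per the labels. GRCm38 and mm10, both mouse builds, stand in the submitters' processing notes while the symbols are human, so no coordinates come from the files. The sources used here name no aligner, counter or annotation and no depth, so no counting intervals were made. Entries without a gene name, 834 and 473 in the MM1S tables, held 0.436% to 0.459% and 0.174% to 0.237% of TPM and were left out.

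The members and lists were chosen with earlier results of these data known. Separately for each comparison, log2(value + 1) was fitted in R 4.3.3 by limma 3.58.1, with its trend and robust options. Genes entered when enough libraries to fill the smaller group reached 1. Tests were two-sided and adjusted by Benjamini-Hochberg over all genes. Log2 differences on this scale understate changes of low genes. The RIP ratio is the log2 of (RBM39 + 1)/(IgG + 1), used where at least 1 of the 2 libraries reached 1 FPKM. Named were COX7C, the 2 called members with the largest difference per complex, comparison and direction with a group mean of at least 5, the SDH genes, isoform sets, members called in all 3 comparisons or in opposite directions in the 2 comparisons labelled shRBM39 and scramble, the 5 highest and 5 lowest RIP ratios, and up to 2 called genes per list and direction; others are marked as chosen after their values were seen. Some genes named by this rule are not reported here. Complex I and ATP synthase were also divided into modules after the values were seen. Replicate numbers were not used to pair libraries. Members were found by the symbol each table lists; their older symbols were then matched to current ones by reference tables. The fits were tested on simulated data. Alternatives were the removal of the filter, a filter at 5, a pseudocount of 0.1, limma without trend and robust, median scaling, quantile normalization, summed repeats of a symbol, a log2 difference of at least 1, a replicate block, and leaving out each library. Protein lengths were planned but not used here, as no protein sequences were at hand. Figures and summaries were made with Python 3.11.15, pandas 2.3.3, NumPy 2.4.6, SciPy 1.17.1 and Matplotlib 3.10.9.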

Additional observations from a re-analysis of the deposited data

Results flagged for a closer look

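In 7 members the libraries labelled shRBM39 and the libraries labelled scramble were called in opposite directions in MM1S and H929. The log2 difference of shRBM39 minus scramble was -1.40 in MM1S and 0.44 in H929 for NDUFB8, and -1.18 and 0.71 for NDUFS1. For NDUFV2 it was -0.67 in MM1S and 0.46 in H929, and for UQCRC1 -0.57 and 0.36. COX6C had -0.70 in MM1S and 0.60 in H929, and ATP5PD -0.72 and 0.81. COX7C ran the other way, with 2.45 in MM1S and -0.16 in H929. Every library labelled shRBM39 lay on one side of every scramble library in MM1S and on the other side in H929. The difference between the lines was not tested, since their tables were normalized separately. RBM39 differed in the same pattern as the 6, with -1.69 in MM1S and 2.81 in H929.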

How the results depend on the processing

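The labels do not say whether replicate numbers pair the libraries, and the correlations here cannot decide it. Deviations of same-numbered libraries correlated at 0.129, -0.000441 and 0.0253 in H929, at -0.142 for both numbers in the MM1S shRBM39 comparison and, for indisulam and DMSO, at 0.137, -0.148 and -0.0255. With 2 libraries a group, the deviations in a group mirror each other, so both numbers must give the same value. Some libraries correlated better with another number than with their own, while number 1 correlated best with its own in H929 and with indisulam. With the number as a replicate block, members called higher and lower came to 44 and 12 in H929, 1 and 1 with shRBM39 in MM1S, and 0 and 36 with indisulam. The shares of all genes were 24.4% and 48.3%, 0.424% and 1.38%, and 7.13% and 16.5%, in that order. A crossed replicate block in MM1S shRBM39, chosen after seeing the data, gave 3 lower, against 3.68% of all genes.

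With shRBM39 in MM1S the members called lower were 0 without a filter, 2 without limma's trend and robust options, 5 under quantile normalization and 2 at a log2 difference of at least 1. Of all genes, 0%, 4.68%, 6.13% and 4.14% were called lower in those settings, in that order. Members called higher were 0 without a filter and 2 each with a filter at 5, median scaling and quantile normalization. The shares of all genes were 0%, 6.64%, 5.43% and 5.29%. With indisulam the members called lower were 27 without those options, 28 without a filter, 13 under median scaling, 16 under quantile normalization and 4 at a log2 difference of at least 1. Of all genes, 20.7%, 7.79%, 22%, 20.7% and 7.3% were called lower in those settings, in that order. Members called higher were 0 without those options, without a filter and at that difference, 2 under median scaling and 7 under quantile normalization. The shares of all genes were 8.11%, 2.32%, 3.93%, 19.3% and 22.5%. In H929, median scaling gave 2 lower, against 32% of all genes. At a log2 difference of at least 1, 0 members were called in either direction, against 1.53% of all genes higher and 3.21% lower.

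Leaving out 1 library of the MM1S shRBM39 comparison leaves a lone library, whose spread is taken to be that of the opposite group. Leaving out 1 library at a time gave 40 to 43 members higher and 7 to 12 lower in H929, against 22.4% to 23.9% and 44.9% to 47.2% of all genes. With indisulam it gave 0 to 4 higher and 21 to 66 lower, against 3% to 36.8% and 11.9% to 29% of all genes. With shRBM39 in MM1S calls are not counted, since a lone library is left, and the members' median log2 difference ranged from -0.21 to -0.04. COX7C then ranged from -0.21 to -0.12 in H929, losing its call without scramble replicate 1, from 2.37 to 2.53 with shRBM39 in MM1S and from -0.29 to -0.15 with indisulam. Without a filter COX7C kept a log2 difference of 2.45 in MM1S but not its call, and 0% of all genes were called there.

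Signs changed for small log2 differences. In H929, median scaling gave 0.00385 for COX7C, 0.00403 for ATP5MJ, 0.145 for COX6A1, 0.096 for COX7A2 and 0.0626 for COX8A, and quantile normalization gave -0.0916 for COX6B1. With shRBM39 in MM1S, SDHB had 0.0399 under median scaling, and quantile normalization gave 0.082 for SDHB, 0.025 for COX4I1 and 0.113 for COX6B1. With indisulam, NDUFA4L2 had 0.0016 under median scaling and 0.0159 with a pseudocount of 0.1, and UQCRH had 0.00448 under median scaling. Quantile normalization with indisulam gave 0.121 for COX7C, 0.25 for COX4I1, 0.167 for COX7A2, 0.0779 for COX7A2L, 0.112 for NDUFA4, 0.00528 for NDUFA4L2, 0.275 for UQCRH and 0.064 for ATP5MC3.

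Leaving out 1 library at a time also changed signs, in genes without a call. In H929 the range was -0.000595 to 0.0651 for SDHB, -0.0402 to 0.00632 for COX6A1 and -0.0339 to 0.104 for NDUFA4. With shRBM39 in MM1S it was -0.0208 to 0.245 for SDHA, -0.141 to 0.136 for SDHB, -0.0422 to 0.223 for SDHD and -0.0308 to 0.209 for ATP5MC2. With indisulam it was -0.0144 to 0.152 for SDHA, -0.011 to 0.10 for SDHC, -0.105 to 0.196 for SDHD, -0.187 to 0.00871 for COX4I1, -0.319 to 0.175 for NDUFA4L2 and -0.0288 to 0.0175 for UQCRH. The cause was not tested. TPM keeps no depth, and no counts were at hand, so low members carry an unknown counting error. Protein lengths were not run.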
